A study of Mus musculus with 18 samples.

Results

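A set of 6 libraries of C2C12 mouse myoblasts was compared: 3 from a clonal line that carries a doxycycline-inducible, codon-altered mouse Dux transgene (clone 15B) and 3 from a clonal line that carries inducible luciferase (Luc2A). They are 6 of the 18 libraries of the series and were chosen by their labels, with no measured value used. None of the 6 cultures received doxycycline, so neither transgene was induced, and the comparison describes the lines as they stood before induction. All cultures grew with 10% fetal bovine serum and 2.6 µg/ml puromycin, which selects for cells that carry the transgene. The other groups, also 3 cultures each, were an uninduced clone with codon-altered human DUX4 (clone 9) and the 3 clones after 36 h with 2 µg/ml doxycycline. Each library came from a separate culture. Each transgene was represented by 1 clone, so transgene, clone and the history of the line cannot be told apart, and p-values measure the spread between cultures of a clone and not between clones.

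C2C12 cells are proliferating muscle precursors that withdraw from the cell cycle, fuse and build sarcomeres when serum is removed. Their identity rests on the basic helix-loop-helix factors Myf5 and Myod1, which mark committed myoblasts, and on Myog, which is switched on with MEF2 factors as differentiation starts and drives the genes of the contractile apparatus. A clone is grown from a single cell, and the clones of a line can settle at different points along this path. Dux, a double-homeobox factor of the 2-cell embryo, was the transgene under study, and luciferase was the control protein.

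Of 24028 genes in the table, 13602 passed the filter on low counts and were tested with edgeR's quasi-likelihood F test, called at a Benjamini-Hochberg adjusted p under 0.05. Total counts ran from 11010586 to 17179642 in the 6 libraries. Values are CPM, counts in a library scaled to a common total, listed for replicates 1, 2 and 3, and differences are log2 fold changes of the mouse Dux clone minus the luciferase clone ± SE. Mouse Dux library 1 stood apart from its replicates: the chi-square per degree of freedom against libraries 2 and 3 was 5.16 and 5.25, against 1.26 between libraries 2 and 3 and 1.42 to 1.66 among luciferase libraries. It also had fewer reads from long transcripts (over 8000 bases), with a median of -0.11 on the log2 scale from the group mean over 593 genes, and more from short ones (under 1500 bases), with 0.066 over 837 genes. Between the clones, the 746 genes tested with transcripts over 8000 bases had a median log2 fold change of -0.11, with 161 called higher and 273 lower, and -0.064 without mouse Dux library 1 (167 higher, 231 lower). The median was 0.0088 over 10915 genes of 1500 to 8000 bases (3675 higher, 3621 lower). RNA quality was not measured. Without this library 4181 genes were called higher and 4328 lower, beside 4377 and 4506 with it. The counts of genes at least 4-fold apart were then 520 higher and 771 lower, beside 503 and 749.

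The 2 lines differed over most of the transcriptome. In all, 8883 of 13602 genes were called (65.3%), 4377 higher in the mouse Dux clone (32.2%) and 4506 lower (33.1%). These shares are the background for the counts of every list below. The libraries of the 2 groups did not overlap for 9920 genes (72.9%). Most differences were small, with a median absolute log2 fold change of 0.40, but 1302 genes were called at least 2-fold higher (9.57%) and 1437 at least 2-fold lower (10.6%). At 4-fold or more there were 1252 genes (9.2%), 503 higher (3.7%) and 749 lower (5.51%). Among these, 59 of the higher genes had no count in any luciferase library and 93 of the lower genes had none in any mouse Dux library. The human DUX4 clone differed widely from both: 9030 genes were called between it and the mouse Dux clone (66.4%), of which the mouse Dux clone was higher for 4505 (33.1%) and lower for 4525 (33.3%). Between it and the luciferase clone 9923 were called (73.0%), with the human DUX4 clone higher for 4895 (36.0%) and lower for 5028 (37.0%). These 3 comparisons share libraries, so their values are set side by side only.

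**Figure D1:**
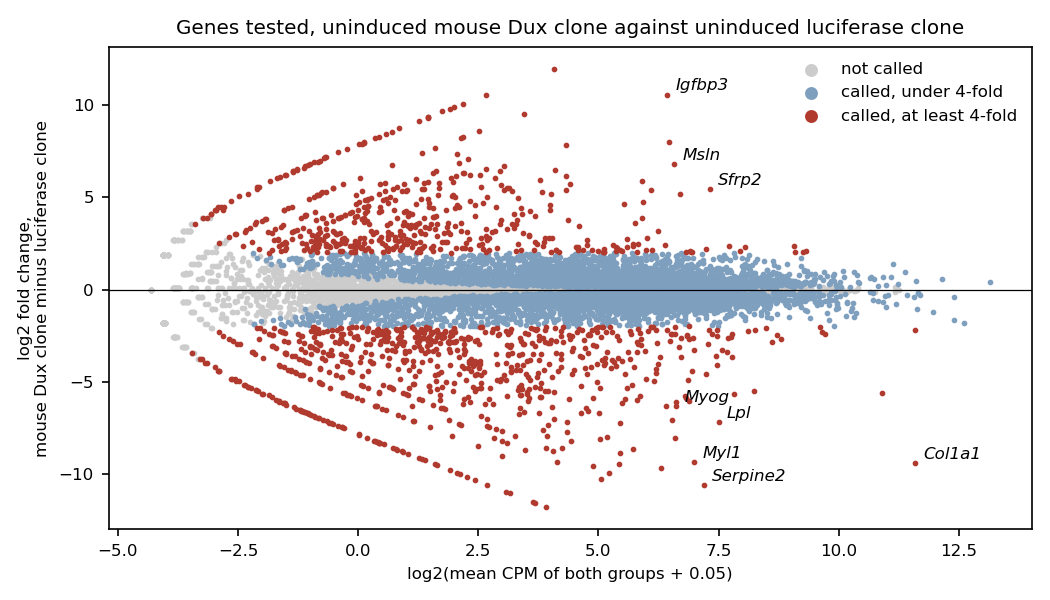
Each point is 1 of 13602 genes, with log2 of the mean CPM of both groups (plus 0.05) on the x axis and the log2 fold change of the uninduced mouse Dux clone minus the uninduced luciferase clone on the y axis. Red points, 503 above and 749 below 0, were called and at least 4-fold apart, blue points were called and under 4-fold apart, and grey points were not called.

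The 6 genes that mark the 2 lines differed by 83.7-fold (Myog) or more in mean CPM. Msln encodes mesothelin, a cell-surface protein best known from mesothelium. It read 181, 195 and 187 CPM in the mouse Dux libraries and 1.73, 1.58 and 1.66 CPM in the luciferase libraries. The groups lay far apart, with a log2 fold change of 6.82 ± 0.075 (edgeR adjusted p = 6.91e-22). Igfbp3, a secreted protein that binds insulin-like growth factors, read 183, 168 and 167 CPM in the mouse Dux clone. In the luciferase libraries it read 0.115, 0 and 0.207 CPM, one of them without a count, and the log2 fold change was 10.59 ± 0.15 (edgeR adjusted p = 1.96e-20).

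The other 4 markers were on in the luciferase clone and close to silent in the mouse Dux clone. Serpine2, a secreted inhibitor of serine proteases, read 0.17, 0.29 and 0.0637 CPM in the mouse Dux libraries and 282, 304 and 293 CPM in the luciferase libraries, a log2 fold change of -10.61 ± 0.13 (edgeR adjusted p = 1.49e-21). Lpl, the lipase that releases fatty acids from lipoproteins, read 2.04, 2.49 and 2.80 CPM against 347, 377 and 356 CPM, a log2 fold change of -7.18 ± 0.084 (edgeR adjusted p = 1.14e-21). Myl1, an alkali light chain of fast muscle myosin, read 0.424, 0.29 and 0.446 CPM against 252, 255 and 256 CPM, a log2 fold change of -9.35 ± 0.14 (edgeR adjusted p = 2.39e-20). Within each group the 3 libraries lay close together beside these gaps, and no mouse Dux library reached any luciferase library. Myog, the differentiation factor named above, read 1.61, 2.67 and 2.68 CPM against 201, 191 and 191 CPM, a log2 fold change of -6.34 ± 0.13 (edgeR adjusted p = 2.13e-18). In bulk RNA, fewer cells that express a gene and less RNA per cell cannot be told apart, so a lower level of Myog or Myl1 can be either.

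The third clone lay near the mouse Dux clone for some markers and apart from it for others. The human DUX4 clone had Msln at 218, 204 and 198 CPM, and the log2 difference of the mouse Dux clone from it was -0.14. It had Serpine2 at 0.125, 0.192 and 0.226, Lpl at 0.438, 0.449 and 0.226 and Myog at 0.876, 1.47 and 1.36 CPM, all at the low end with the mouse Dux clone. Myl1 lay between the 2 lines at 5.94, 7.05 and 6.26 CPM, above the mouse Dux clone (the mouse Dux clone minus the human DUX4 clone was -4.05 ± 0.23, edgeR adjusted p = 1.26e-11). Igfbp3 was different, since it read 0.0626, 0.0641 and 0.0754 CPM there, and only the mouse Dux clone of these 3 had more than 1 CPM of it. The luciferase clone kept its side with doxycycline: Serpine2 then read 415, 425 and 425 CPM, Lpl 366, 380.4 and 377 CPM and Msln 3.23, 2.90 and 2.80 CPM.

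**Figure D2:**
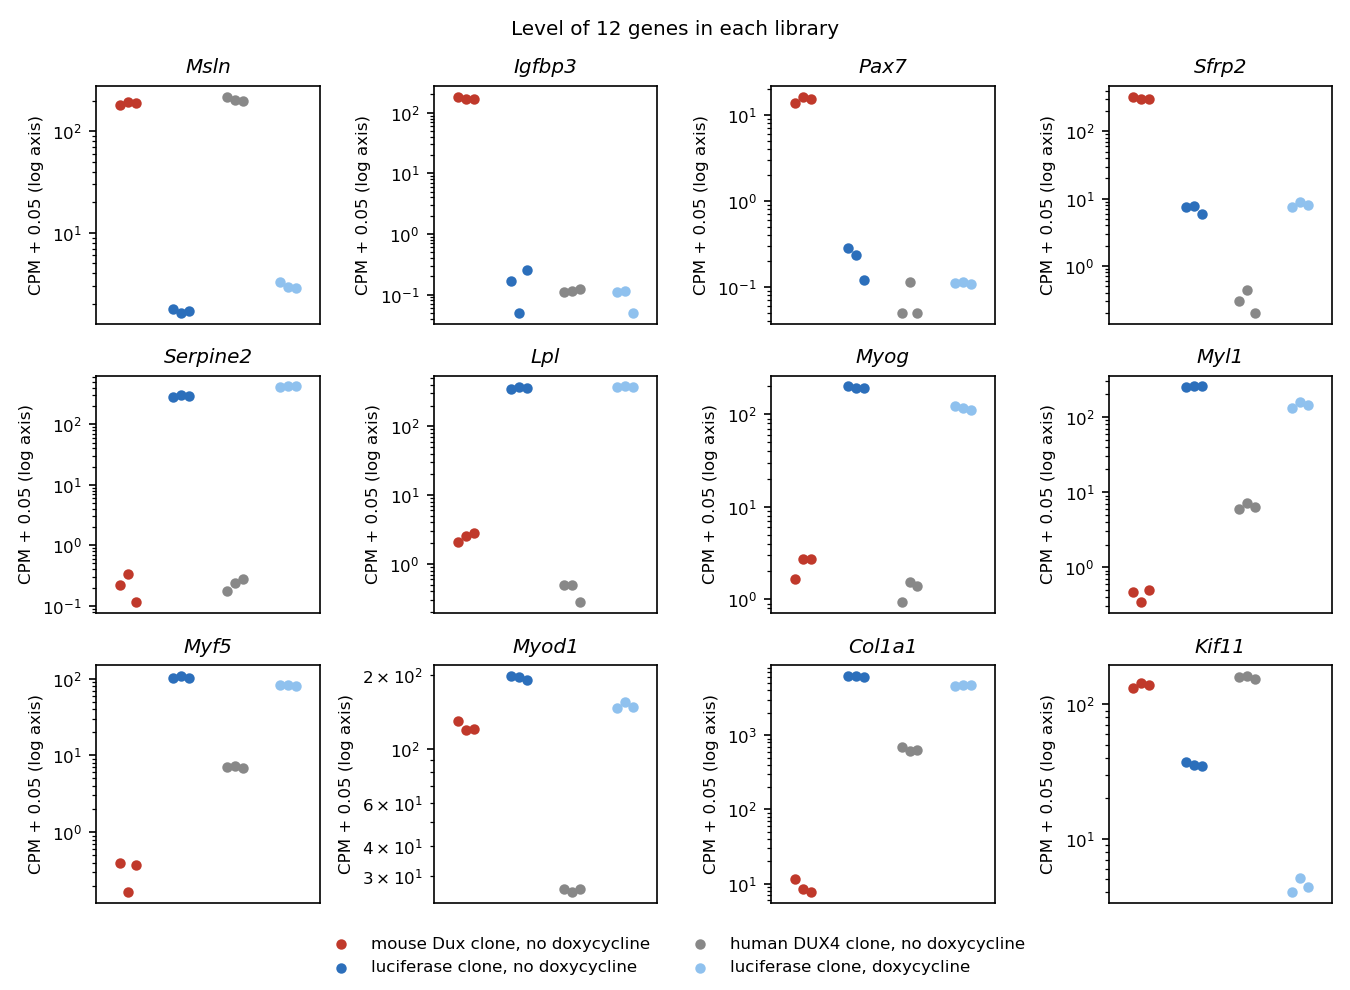
Each panel is 1 gene, each point 1 library, and the y axis is CPM plus 0.05 on a log scale, for the uninduced mouse Dux, luciferase and human DUX4 clones and the luciferase clone with doxycycline. Msln, Igfbp3, Pax7, Sfrp2 and Kif11 lie higher in all 3 mouse Dux libraries than in the uninduced luciferase libraries, and the other 7 genes lie lower in all 3.

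Markers of the labelled cell type were present in both lines, at different levels. Myod1, the master regulator that commits cells to muscle, read 129.8, 119 and 120 CPM in the mouse Dux libraries and 199, 196 and 192 CPM in the luciferase libraries (log2 fold change -0.67 ± 0.075, edgeR adjusted p = 1.74e-07). Des, the muscle intermediate filament desmin, read 689.7, 732 and 732 against 1293, 1284 and 1269 CPM (-0.84 ± 0.052), and Cdh15, the M-cadherin of myoblasts, 184, 199.7 and 187 against 523, 542 and 536 CPM (-1.49 ± 0.055). All 3 were present in every library and lower in the mouse Dux clone, by under 3-fold.

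Myf5 and Pax7 divided the lines far more. Myf5, the early commitment factor, read 0.34, 0.116 and 0.319 CPM in the mouse Dux clone and 103, 109 and 102 CPM in the luciferase clone (-8.68 ± 0.16, edgeR adjusted p = 4.22e-19). Pax7, the factor of satellite cells, the stem cells of muscle, went the other way with 13.8, 16.3 and 15.3 against 0.231, 0.183 and 0.0691 CPM (6.45 ± 0.28, edgeR adjusted p = 1.42e-12). Pax7 was under 0.1 CPM in each library of the human DUX4 clone (0, 0.0641 and 0 CPM), and Myf5 there read 6.94, 7.12 and 6.86 CPM. Mef2c, a MEF2 factor that works with Myog, had no count in any mouse Dux library and 28.3, 30.5 and 30.7 CPM in the luciferase libraries. Against a floor of 3 counts over the group, Mef2c was at least 443-fold lower. By the same floor Twist1, a basic helix-loop-helix factor of mesenchyme, was at least 88.4-fold lower. Heyl, a Notch-responsive repressor, read 3.57, 4.24 and 4.14 against 227, 208 and 220.3 CPM (-5.76 ± 0.11). Of 37 myogenic transcription factors tested, 13 were called higher and 16 lower, beside 32.2% and 33.1% of all genes. Their median log2 fold change was -0.07 beside 0 over all genes tested, so the list as a whole was divided.

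The contractile apparatus was the most one-sided group among the lower genes. Of 56 sarcomere genes tested, 51 were called lower in the mouse Dux clone and 3 higher, with a median log2 fold change of -4.06. For all genes 33.1% were called lower. The sarcomere genes tested summed to 3133, 3241 and 3202 CPM in the mouse Dux libraries and 8261, 8092 and 8275 CPM in the luciferase libraries. Myh3, the embryonic myosin heavy chain, read 0.594, 0.58 and 0.956 against 191, 184 and 201 CPM (-8.05 ± 0.15). Actc1, the cardiac actin that immature muscle also makes, read 0.424, 0.464 and 0.765 against 89.3, 84 and 88.4 CPM (-7.26 ± 0.15), and Myh7, the slow myosin heavy chain, 0.17, 0.174 and 0.255 against 20.7, 20.5 and 23.1 CPM (-6.68 ± 0.23). The mouse Dux libraries were all under 1 CPM for these 3 genes, and the luciferase libraries all above 20. The 3 members called higher, named after their values were seen, were Tpm3, a tropomyosin (0.15 ± 0.042), Ankrd1, an ankyrin-repeat protein of the sarcomere (0.24 ± 0.062), and Tnni3, the cardiac troponin I (1.03 ± 0.27). Tmod4 and Myoz3 were not called.

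Promoters of 4 of these lower genes are shown because they carry sequences known from muscle promoters. They are RefSeq windows on GRCm38.p6 from 250 bases before to 50 after an annotated start, printed on the gene's own strand. Capitals mark CAGCTG, one form of the E-box that MyoD-family factors bind, and the CArG box, the site of serum response factor. Acta1 encodes skeletal actin and Mylpf a regulatory light chain of fast myosin, and both were chosen after their values were seen.
Myl1 (chr1:66945007-66945306, minus strand): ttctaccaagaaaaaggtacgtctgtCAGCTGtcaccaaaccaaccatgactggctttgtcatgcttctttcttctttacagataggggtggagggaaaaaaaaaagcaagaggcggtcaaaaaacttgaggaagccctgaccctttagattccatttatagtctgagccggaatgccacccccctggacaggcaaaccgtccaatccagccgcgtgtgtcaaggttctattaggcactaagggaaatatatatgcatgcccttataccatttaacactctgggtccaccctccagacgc
Mylpf (chr7:127211358-127211657, plus strand): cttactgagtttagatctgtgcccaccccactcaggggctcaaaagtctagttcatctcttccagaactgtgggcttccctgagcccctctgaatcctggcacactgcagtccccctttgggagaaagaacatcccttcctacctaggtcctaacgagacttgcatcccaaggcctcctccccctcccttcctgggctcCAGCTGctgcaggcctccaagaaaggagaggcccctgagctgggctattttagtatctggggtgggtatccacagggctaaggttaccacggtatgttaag
Acta1 (chr8:123894726-123895025, minus strand): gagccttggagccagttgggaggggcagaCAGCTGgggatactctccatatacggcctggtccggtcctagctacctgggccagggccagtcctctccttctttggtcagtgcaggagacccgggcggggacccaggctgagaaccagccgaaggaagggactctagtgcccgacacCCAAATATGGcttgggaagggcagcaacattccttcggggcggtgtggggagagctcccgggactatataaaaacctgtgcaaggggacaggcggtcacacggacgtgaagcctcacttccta
Actc1 (chr2:114052826-114053125, minus strand): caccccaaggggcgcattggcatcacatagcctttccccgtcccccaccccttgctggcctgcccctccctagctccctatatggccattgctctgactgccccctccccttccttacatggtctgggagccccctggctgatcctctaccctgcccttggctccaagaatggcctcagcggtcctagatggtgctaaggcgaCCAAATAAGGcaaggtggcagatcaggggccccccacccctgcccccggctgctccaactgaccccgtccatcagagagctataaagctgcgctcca
CAGCTG starts 224, 51 and 221 bases before the start in Myl1, Mylpf and Acta1, and the CArG box 73 and 47 bases before it in Acta1 and Actc1. Over all 32851 promoter entries of RefSeq, 16.3% hold CAGCTG, which reads the same on both strands, and 1.63% a CArG box. Among 65 entries of 53 sarcomere genes the shares were 30.8% and 12.3%, and the motifs do not overlap each other. A match describes the letters of these windows and nothing about which factor was bound in these cells. Acta1 read 3.06, 4.29 and 3.12 against 229.5, 222 and 250.3 CPM (-6.04 ± 0.11), and Mylpf 2.55, 3.36 and 2.23 against 189, 188 and 202 CPM (-6.13 ± 0.11).

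Calcium handling and energy genes of muscle followed the sarcomere in direction. Of 36 tested, 30 were called lower and 3 higher, with a median of -2.34. Ckm, muscle creatine kinase, read 0, 0.116 and 0.0637 against 34.9, 30.3 and 34.3 CPM, a ratio of 494 with a 95% exact interval from 169 to 2399 that covers counting error only. Mb, the oxygen store myoglobin, read 0.17, 0.232 and 0.382 against 69.6, 66.9 and 79.1 CPM (-8.02 ± 0.19). Trim63, the muscle ubiquitin ligase MuRF1, differed by -6.74 ± 0.27 and Casq2, a calcium store protein, by -6.04 ± 0.29. The higher members included, named after their values were seen, Kcnj2, an inward rectifier potassium channel (0.70 ± 0.051), and Eno3, a muscle enolase (0.14 ± 0.046), whose edgeR adjusted p reached 0.0502 with 1 library left out. At the neuromuscular synapse 12 of 19 genes were lower and 2 higher, Lrp4 and Erbb2. Musk, the kinase that clusters acetylcholine receptors, read 44.1, 50 and 54.2 against 159, 169 and 159.5 CPM (-1.71 ± 0.11). Its partner receptor Lrp4 read 313, 357 and 362 against 173, 176 and 172 CPM (0.99 ± 0.12). Sntb1, a syntrophin, was lower by a larger factor (-5.36 ± 0.16), and Dtna, a dystrobrevin, by a smaller one (-1.28 ± 0.064).

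Surface and fusion proteins of myoblasts were split, with 22 of 43 lower and 15 higher (median -0.32). Tmem8c, the fusion protein myomaker, read 4.16, 4.47 and 4.27 against 79.3, 72.5 and 81.3 CPM (-4.17 ± 0.1). Cdh11, a mesenchymal cadherin, read 0.17, 0.754 and 0.382 against 14.5, 14.4 and 14.1 CPM (-4.91 ± 0.20). The chemokine Cxcl12 was the reverse, with 135, 134 and 133 against 3.35, 2.56 and 3.66 CPM (5.40 ± 0.083, edgeR adjusted p = 3.34e-20). All 3 mouse Dux libraries were above 130 CPM for Cxcl12, and no luciferase library reached 4.

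Most collagen and matrix glycoprotein genes were called, as were 65.3% of all genes tested. More of them were lower than higher in the mouse Dux clone, beside 33.1% lower and 32.2% higher over all genes. Col1a1, the alpha-1 chain of fibrillar type I collagen, read 11.5, 8.35 and 7.71 CPM in the mouse Dux libraries and 6285, 6168 and 6021 CPM in the luciferase libraries. The gap was -9.41 ± 0.16 (edgeR adjusted p = 2.24e-19), and the human DUX4 clone lay between at 692, 607 and 632 CPM. Col1a2, the partner chain of the same collagen, went the other way, with 1032, 1134 and 1134 against 592, 549 and 552 CPM (0.96 ± 0.058). Of 31 collagen genes tested 20 were lower and 5 higher (Col1a2, Col23a1, Col8a2, Col17a1 and Col2a1), with a median of -0.81. The call of Col23a1 was lost without luciferase library 2 (edgeR adjusted p = 0.0646). Col14a1, a collagen on fibril surfaces, differed by -6.69 ± 0.18, Col24a1 by -5.54 ± 0.13 and Col4a5 of basement membranes by -4.32 ± 0.087. The collagens tested summed to 8091, 9287 and 9333 CPM in the mouse Dux libraries and between 24180 and 24480 CPM in the luciferase libraries.

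Of 63 matrix glycoproteins and proteoglycans 36 were lower and 18 higher (median -0.51). Aspn, a small leucine-rich proteoglycan, read 13.5, 12 and 12.6 against 580.5, 596 and 583 CPM (-5.53 ± 0.10). Dcn, the related decorin, read 4.50, 4.24 and 4.33 against 138, 139 and 139 CPM (-4.99 ± 0.083), and Postn, the matricellular protein periostin, 3.40, 2.44 and 2.74 against 97.3, 99.5 and 104 CPM (-5.16 ± 0.11). Lama4, a laminin chain, differed by -5.97 ± 0.31. Among 45 proteases and inhibitors 21 were lower and 13 higher, with a median of -0.21, or -0.25 with genes at their bound. They include the metalloproteases Adamts12 (-6.70 ± 0.14), Adamts2 (-2.89 ± 0.059) and Adamts4 (-2.71 ± 0.063) beside Serpine2.

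The insulin-like growth factor axis, which drives myoblast growth and differentiation, differed at the ligand and its binding proteins. Igf2, the ligand that differentiating myoblasts secrete, read 1.36, 1.16 and 1.53 CPM in the mouse Dux libraries and 177, 181 and 188 CPM in the luciferase libraries (-7.08 ± 0.094, edgeR adjusted p = 4.53e-21). The binding protein Igfbp4 read 0.509, 0.464 and 0.319 against 23.1, 20.8 and 22.9 CPM (-5.68 ± 0.19), and Pappa, the protease that cleaves it, 0.934, 1.16 and 0.701 against 21.2, 17.7 and 19.5 CPM (-4.36 ± 0.19). Both were lower, while Igfbp3, described above, was higher. Of 23 genes of the axis 13 were lower and 8 higher (median -0.38). Igf2 is also imprinted, that is, expressed from 1 parental copy. Of 35 imprinted genes 20 were lower and 7 higher (median -0.34), beside 33.1% and 32.2% of all genes. Zim1, a zinc finger gene of this list, read 4.58, 6.61 and 5.73 against 41.3, 33.8 and 34.5 CPM (-2.67 ± 0.14). Cdkn1c, the imprinted inhibitor of cyclin-dependent kinases, read 5.77, 6.27 and 5.93 against 0.0577, 0.0609 and 0.0691 CPM, a ratio of 96.7 with a 95% exact interval from 32.7 to 472.

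Genes of the Wnt pathway differed in both directions. Sfrp2, a secreted protein that binds Wnt ligands, read 326, 304 and 302 against 7.44, 7.80 and 5.80 CPM (5.46 ± 0.11, edgeR adjusted p = 1.03e-18). The human DUX4 clone had 0.25, 0.385 and 0.151 CPM, below both. Ror1, a Wnt co-receptor, read 6.71, 7.66 and 8.60 against 0.0577, 0.0609 and 0.276 CPM (5.86 ± 0.34), and Notum, an enzyme that inactivates Wnt ligands, 6.03, 7.14 and 6.75 against 0.462, 0.488 and 0.691 CPM (3.61 ± 0.20). Sfrp4, a relative of Sfrp2, was lower (-4.26 ± 0.19). Of 41 Wnt pathway genes 22 were higher and 15 lower (median 0.33), beside 32.2% and 33.1% of all genes.

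In the TGF-beta and BMP list 21 of 42 genes were higher and 15 lower (median 0.09, or 0.12 with genes at their bound). Bmper, a secreted BMP-binding protein, read 99.5, 99.4 and 100.4 against 8.71, 7.19 and 8.42 CPM (3.62 ± 0.085), and Bmpr1b, a BMP receptor, 21.6, 18.6 and 19.8 against 0.808, 1.04 and 0.967 CPM (4.40 ± 0.15). The co-receptor Tgfbr3 was lower (-3.86 ± 0.13). In the Notch list 6 of 22 genes were higher and 8 lower (median -0.05), close to the shares over all genes (32.2% and 33.1%). The ligands Jag1 (-1.81 ± 0.1) and Dll1 (-1.61 ± 0.076) were lower, and Lfng, an enzyme that modifies the receptors, was higher (2.03 ± 0.09). Of 29 YAP and TEAD targets 14 were higher and 9 lower (median 0.14), beside 32.2% and 33.1% of all genes. Ctgf, a matricellular protein often read as a YAP target, went from 51.9, 48 and 55.9 CPM in the luciferase clone to 1.78, 2.09 and 2.61 CPM (-4.56 ± 0.11), while Crim1 (1.51 ± 0.095) and Myof (1.05 ± 0.12) were higher.

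Sterol and lipid genes were mostly higher in the mouse Dux clone. Of 25 cholesterol synthesis genes 23 were higher, 1 lower and 1 not called, with a median of 1.03, against 32.2% called higher over all genes. Idi1, an isomerase of the pathway, read 298, 276 and 276 against 89.2, 87.9 and 88.6 CPM (1.68 ± 0.056). Acat2, the enzyme that joins 2 acetyl-CoA units, read 194, 187 and 191 against 59.4, 57.6 and 60.6 CPM (1.69 ± 0.06). Srebf2, the transcription factor of the pathway, was the lower member (-0.29 ± 0.04). Without mouse Dux library 1, 24 members were called higher. Of 28 adipocyte and lipid genes 21 were higher and 4 lower (Lpl, Cd36, Plin2 and Dgat1), with a median of 0.55. The call of Dgat1 was lost under 7 of 14 alternatives, 5 of them the loss of 1 library, with adjusted p up to 0.317. Plin4, a lipid droplet protein, read 126, 139.9 and 145 against 13.8, 17.9 and 13.8 CPM (3.17 ± 0.10). Lipe, the hormone-sensitive lipase, differed by 1.63 ± 0.078 and Fabp5, a fatty acid binding protein, by 1.66 ± 0.10.

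Cell-cycle genes were higher in the mouse Dux clone with no exception among those called. All 60 G2 and M phase genes tested were called higher (median 1.49), and so were 47 of 51 S phase genes (median 1.07), none lower. Kif11, a mitotic kinesin, read 132, 145 and 139 against 37, 35.5 and 34.8 CPM (1.95 ± 0.061, edgeR adjusted p = 8.18e-16). Ccnb2, a mitotic cyclin, read 91.3, 88.8 and 90 against 21.5, 20.8 and 24.5 CPM (2.02 ± 0.091). Tk1, the thymidine kinase of S phase, read 66.7, 69.9 and 68 against 14.8, 13.5 and 13.5 CPM (2.29 ± 0.086), and Mcm5, a subunit of the replicative helicase, 68.8, 74.5 and 69.9 against 17.4, 15.3 and 15.4 CPM (2.15 ± 0.071). The human DUX4 clone read 161, 163 and 154 CPM for Kif11 and 177, 175 and 184 CPM for Tk1, above the luciferase libraries too. In the luciferase clone with doxycycline, Kif11 read 3.98, 5.10 and 4.35 CPM and Tk1 2.30, 2.07 and 2.15 CPM, lower than without it. The G2 and M list summed to 5069, 5446 and 5344 CPM in the mouse Dux libraries and 1978, 1882 and 2010 CPM in the luciferase libraries. The number of cells and their growth rate were not measured, and their part in these levels was not tested.

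Cyclin D genes, inhibitors of cyclin-dependent kinases and p53 genes were mixed. Of 38 genes in this list 14 were higher and 19 lower (median -0.14), beside 32.2% and 33.1% of all genes. Ccnd2, a D-type cyclin that drives entry into S phase, read 17.2, 19.2 and 13.7 against 0.462, 0.305 and 0.276 CPM (5.54 ± 0.28). Pmaip1, the p53-responsive cell-death gene Noxa, differed by -2.18 ± 0.13, and Perp, another p53 target, by -2.94 ± 0.17.

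**Figure D3:**
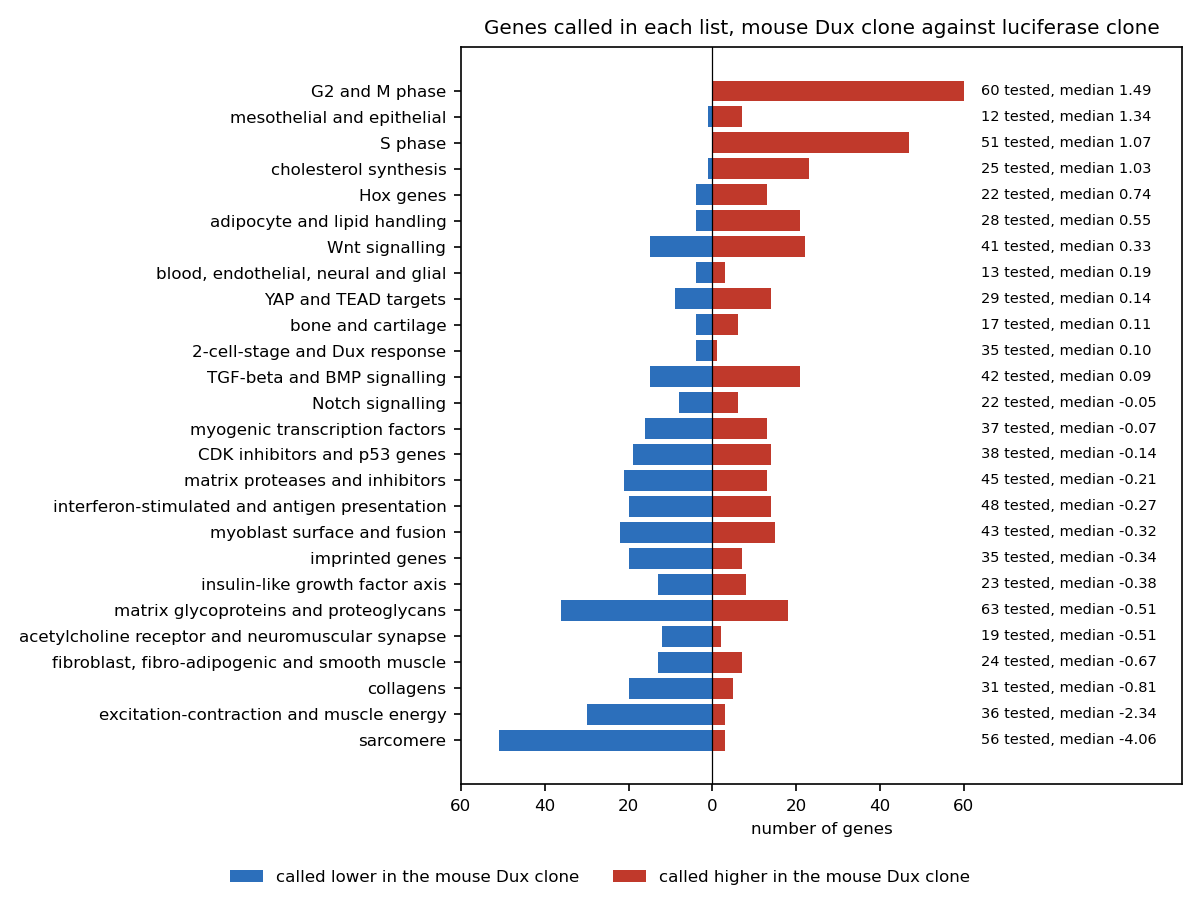
Bars give the number of genes in each of 26 lists called higher (red, to the right) or lower (blue, to the left) in the uninduced mouse Dux clone than in the uninduced luciferase clone, with the number tested and the median log2 fold change beside each. The lists run from G2 and M phase (60 of 60 higher) to sarcomere (51 of 56 lower), and over all 13602 genes 32.2% were higher and 33.1% lower.

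Of 12 mesothelial and epithelial genes tested 7 were higher, each at least 2-fold (9.57% of all genes were), and 1 lower (median 1.34, or 1.75 with genes at their bound). The 12 genes tested summed to 317 to 336 CPM in the mouse Dux libraries and 69.8 to 75.3 CPM in the luciferase libraries. Msln made up more than 180 CPM of the former. Pkp2 and Pkp1, plaque proteins of desmosomes, differed by 1.75 ± 0.056 and 1.08 ± 0.072. The defining genes Wt1, Upk3b, Krt18, Epcam and Dsp had 0 counts in all 3 mouse Dux libraries. In the list of blood, endothelial, neural and glial genes 3 of 13 tested were higher and 4 lower, and without mouse Dux library 1 the higher count was 5. Stmn2, a tubulin-binding protein of neurons, read 463, 430.3 and 429 against 86.2, 91.3 and 86.6 CPM (2.32 ± 0.067), whereas Snap25 and Sox10, of neurons and glia, had 0 counts in all 6 libraries. Cdh5, the cadherin of endothelium, read 23.5, 25.5 and 27.1 CPM in the luciferase clone and had no count in the mouse Dux clone, at least 377-fold lower. Flt1, an endothelial receptor, differed by -4.14 ± 0.19, while Kdr and Emcn of the same cell type had 0 counts in all 6 libraries.

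Among 24 fibroblast and smooth muscle genes 13 were lower and 7 higher (median -0.67), beside 33.1% and 32.2% of all genes. Cnn1, the smooth muscle calponin, read 2.72, 4.18 and 3.76 against 57.2, 57.9 and 62 CPM (-4.02 ± 0.10). Lmod1 differed by -2.52 ± 0.10 and Nt5e, the ectoenzyme CD73, by -1.75 ± 0.12. Cd34, a sialomucin of progenitor cells, was higher with 172, 172 and 164 against 39.5, 44.6 and 43.6 CPM (1.99 ± 0.066). In the bone and cartilage list 6 of 17 were higher and 4 lower (median 0.11), neither above the shares over all genes by much. Spp1, the secreted phosphoprotein osteopontin, read 346, 341 and 342 against 1021, 1010.4 and 1017 CPM (-1.57 ± 0.054), and Cilp, a cartilage matrix protein, 11.3, 11.5 and 12 against 0.346, 0.548 and 0.414 CPM (4.71 ± 0.19). Dlx3 was higher (1.36 ± 0.13), and Tnfrsf11b, the decoy receptor osteoprotegerin, was lower (-1.99 ± 0.20).

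Antigen presentation and Hox genes moved in parts. Of 48 interferon-stimulated and antigen presentation genes 14 were higher and 20 lower (median -0.27, or -0.26 with genes at their bound). For all genes the shares were 32.2% higher and 33.1% lower, so this list lay near them. The peptide transporter genes Tap1 (5.69, 5.57 and 5.16 against 0.346, 0.427 and 0.276 CPM, 3.92 ± 0.24) and Tap2 (1.84 ± 0.074) were higher. So were the class I genes H2-K1 (1.11 ± 0.085) and H2-T23 (1.03 ± 0.067), whose reads can be shared with related copies. These 4, all on chromosome 17, were named by size of change and do not stand for the list. At 2-fold or more, 7 members were higher and 8 lower. Of 22 Hox genes, which encode position along the body axis, 13 were higher and 4 lower (median 0.74, or 0.84 with genes at their bound). Hoxa7 read 14.4, 12.8 and 12.3 against 2.88, 4.08 and 3.94 CPM (1.86 ± 0.12) and Hoxa9 49.2, 46.9 and 49.3 against 20.1, 15.4 and 17.1 CPM (1.46 ± 0.093). Hoxc6 (-1.38 ± 0.085) and Hoxc13 (-1.28 ± 0.10) were lower. Hoxc lies on chromosome 15, and without genes on chromosomes 4, 8, 10, 15 and 19 no Hox gene was called lower and 10 of 12 were higher. Leaving out chromosome 15 removes the Hoxc genes themselves, so it only shows where the 4 lower Hox genes lie. Whether their level followed that of their chromosome was not tested.

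Genes that respond to Dux in the 2-cell embryo were examined as a check of the uninduced state. Zscan4c read 3.90, 2.96 and 3.12 CPM in the mouse Dux libraries and 3.29, 3.11 and 3.66 CPM in the luciferase libraries, and the groups overlapped (-0.03 ± 0.14, edgeR adjusted p = 0.882). Zscan4d (0.07 ± 0.28), Zscan4f (-0.09 ± 0.16), Usp17la (0.38 ± 0.21) and Pramef25 (0.46 ± 0.29) were not called either. The SE of these 5 genes ran from 0.14 to 0.29, so a difference of that order was not detectable at this depth. Reads of these families can be shared between near-identical copies. Endogenous Dux had 1, 2 and 0 counts in the mouse Dux libraries and 0, 2 and 1 in the luciferase libraries, so no fold is given, and reads of the codon-altered transgene were not analysed here. Of 35 genes of this list tested 1 was higher and 4 lower (median 0.10), beside 32.2% and 33.1% of all genes. The filter used all 18 libraries, so genes counted only after induction could pass it. Among the 35, 9 had at most 3 counts in total in each of the 2 groups and could hardly be called. The list summed to 39.2 to 54.4 CPM in the mouse Dux libraries and 67.8 to 72.4 CPM in the luciferase libraries. Its share of calls is therefore not comparable with that over all genes. The higher one, Usp17le, a deubiquitinase gene, read 1.70, 1.91 and 1.66 against 0.577, 0.731 and 1.04 CPM (1.19 ± 0.23, edgeR adjusted p = 0.000132). The lower ones were Gm2022 (-0.34 ± 0.15), whose call was lost under 8 of 14 alternatives, 4 of them the loss of 1 library, and 3 others. Duxbl3, a Dux-like gene, read 0.764, 1.39 and 0.382 against 7.27, 6.64 and 5.18 CPM (-2.87 ± 0.24), and Gm5662 and Gm2016 differed by -1.65 ± 0.14 and -1.44 ± 0.14.

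The 12 largest rises and 12 largest falls were ranked by fitted log2 fold change, which for a gene with no count in 1 line is not a measured fold. Their bounds need not exceed the ratios of genes counted in both lines, such as Col1a1 (669-fold) and Myl1 (657-fold). Among the 12 largest rises, 9 had no count in any luciferase library. Cers4, a ceramide synthase, read 36.4, 32.1 and 31.8 CPM in the mouse Dux clone, at least 532-fold higher. Zic1, a zinc finger factor of the dorsal embryo, read 12.2, 12.2 and 13 CPM, at least 201-fold higher, and the human DUX4 clone had it too at 9.63, 11.9 and 11.6 CPM. Adgrl4 (at least 144-fold), an adhesion receptor, and Ripk3 (at least 85.6-fold), the kinase of necroptosis, were also present in the human DUX4 clone, at 6.32, 5 and 6.49 and 17.7, 16.7 and 16.7 CPM. Lmo1 (at least 126-fold), a LIM-domain cofactor, had no count in either of the other 2 uninduced clones. Lrp2, the long endocytic receptor megalin, read 3.65, 7.66 and 8.35 CPM, lowest in library 1, and was at least 110-fold higher. Slc25a13, a mitochondrial carrier, and Bzrap1 were at least 87-fold and 89.2-fold higher. Scara3 had 1 count and Cbln1, a secreted synaptic protein, had 1 count in the luciferase libraries, giving ratios of 1039 (95% exact interval 186 to 41068) and 543 (96.9 to 21471).

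Among the 12 largest falls, 10 had no count in any mouse Dux library. Besides Mef2c and Cdh5 these were the homeobox factors Alx1 (at least 365-fold lower) and Isl1 (at least 161-fold), the ephrin receptor Epha3 (at least 250-fold), the amino acid transporter Slc16a10 (at least 190.4-fold) and the small GTPase Rab38 (at least 142-fold). The cytokine receptor chain Il2rg (at least 127-fold), Arap2 (at least 122-fold) and Gm4541 (at least 263-fold) complete them. Alx1 read 22.4, 25 and 26.4 CPM and Isl1 12.3, 11.6 and 8.08 CPM in the luciferase clone. Neither had a count in the human DUX4 clone, where Epha3 read 6.13, 4.30 and 4.15 CPM. Setbp1 had 2 counts in total over the mouse Dux libraries and 64.6, 67.3 and 68 CPM in the luciferase libraries, a ratio of 1487 (95% exact interval 411 to 12285).

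The difference between the lines also followed chromosomes. Genes on chromosome 4 had a median log2 fold change of -0.51 over 875 genes, with 604 called lower (69.0%) and 105 higher (12%), beside 33.1% and 32.2% over all genes. Chromosome 15 had a median of -0.41 over 567 genes (63.5% lower), and chromosome 10 of -0.29 over 672 genes (56.5% lower). Chromosome 19 went the other way, with a median of 0.32 over 463 genes (56.8% higher). Chromosome 9 had a median of 0.16, and the medians of the other 15 lay between -0.042 and 0.084, which on chromosomes 5 and 8 hides stretches of opposite sign. As medians of well-counted genes from the mean of the 6 libraries, chromosome 4 stood at -0.24, -0.25 and -0.24 in the mouse Dux libraries and 0.25, 0.26 and 0.25 in the luciferase libraries. Chromosome 19 stood at 0.17, 0.16 and 0.16 against -0.16 in each luciferase library. The groups did not overlap for either. The exact two-sided permutation test over 3 against 3 libraries gave p = 0.1, the smallest it can give. Every other chromosome, also those with a median near 0, gave the same result of this test. It therefore does not set chromosomes 4 and 19 apart from the rest. The same chromosomes stood out between the doxycycline-treated libraries of the 2 clones, which are other cultures: the medians were -0.44 for chromosome 4, -0.56 for 15, -0.34 for 10 and 0.35 for 19. In that pair mouse Dux was induced, and 1 of its libraries stood apart from the other 2, with a chi-square per degree of freedom of 34.2 and 36.7.

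**Figure D4:**
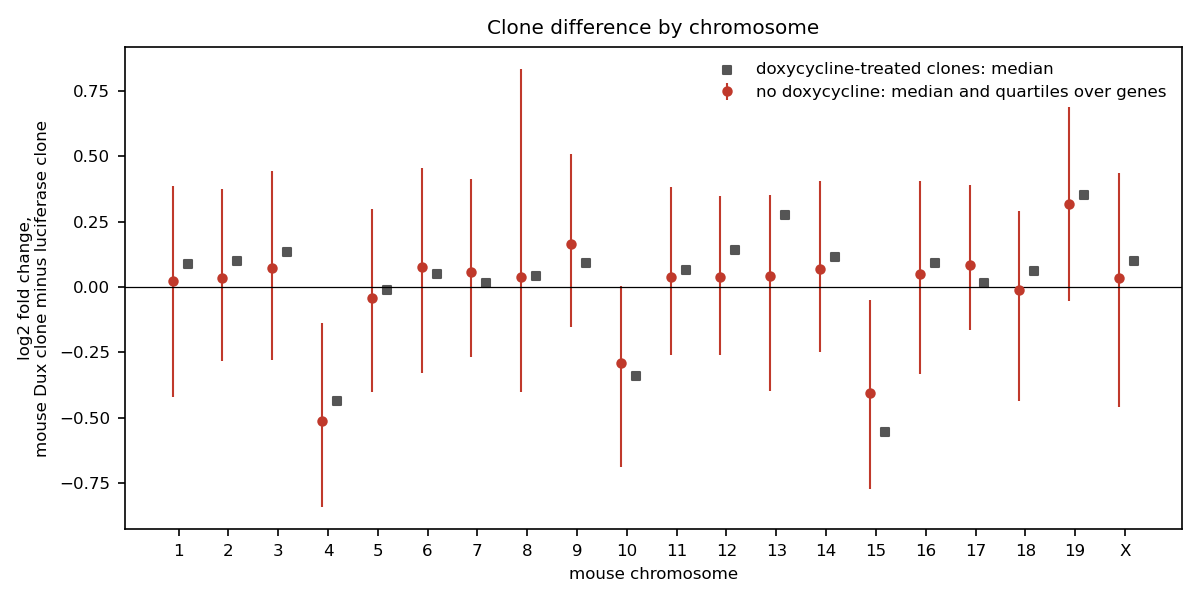
Red points are the median log2 fold change of the mouse Dux clone minus the luciferase clone without doxycycline for each chromosome, with lines from the lower to the upper quartile of genes, and grey squares are the medians of the doxycycline-treated clones. Chromosomes 4, 10 and 15 lie below 0 (-0.51, -0.29 and -0.41) and chromosome 19 above (0.32), in both pairs.

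The shift on chromosomes 4, 10, 15 and 19 ran along their length. In consecutive windows of 50 well-counted genes (mean of at least 10 CPM over all 18 libraries, the last window larger), the median of all 12 windows of chromosome 4 lay between -0.61 and -0.36. All 6 windows of chromosome 19 lay between 0.14 and 0.42. Those of chromosome 10 lay between -0.35 and -0.19, and those of chromosome 15 between -0.61 and -0.26. The human DUX4 clone minus the luciferase clone had medians of -0.57 on chromosome 4, -0.13 on chromosome 15, -0.03 on chromosome 10 and -0.08 on chromosome 19. On chromosome 4 both other clones thus lay below the luciferase clone, and on chromosomes 10 and 19 the median of the human DUX4 clone lay nearer to it. The DNA of the clones was not measured, and what part of a chromosome's shift it has was not tested.

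Chromosome 8 was divided into stretches. Its overall median was 0.036, but from Slc10a7 to Zfp319 (chr8:78509323-95331811 in mm10, a span of 16.8 Mb) 103 of 104 well-counted genes were called higher in the mouse Dux clone. Their median was 1.40, with quartiles at 1.06 and 1.69. This stretch was found from the same values, as a run in which the median of 11 neighbouring genes lay more than 0.6 from the median of the chromosome, so its level is a description. All 137 genes tested there had a median of 1.45, with 133 above 0, 128 called higher and 4 called lower. Smarca5, a chromatin remodeller, read 475, 488 and 469 against 153, 149.8 and 152 CPM (1.65 ± 0.051), and Dnaja2, a co-chaperone, 528, 522 and 522 against 178, 176 and 177 CPM (1.57 ± 0.038). The antioxidant enzyme Prdx2 read 1011, 965 and 963 against 235, 247 and 238 CPM (2.03 ± 0.074). Mmp2, the gelatinase of the matrix, was the only one of the 104 well-counted genes called lower (-0.21 ± 0.039). Smarca5, Dnaja2, Prdx2 and Mmp2 were picked after their values were seen. In the doxycycline-treated libraries, which the search did not use, 95 of the 104 genes were above 0 with a median of 1.39. The human DUX4 clone minus the luciferase clone gave 0.60 over the same genes. Beyond the stretch, the last 2 windows of chromosome 8 had medians of -0.42 and -0.38. Chromosome 5 was divided by smaller amounts: its first 5 windows, up to Anxa3, had medians between -0.32 and -0.22, and the other 6 between 0.0080 and 0.15.

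A shorter run on chromosome 19, from Slc3a2 to Eef1g (chr19:8706882-8978180), went against its chromosome. Its 17 well-counted genes had a median of -0.93, with 16 called lower, and the doxycycline-treated libraries gave -1.03. The mouse Dux clone minus the human DUX4 clone gave 0.022 over these genes, and the human DUX4 clone minus the luciferase clone -1.05, so the luciferase clone was the high one of the 3. On chromosome X, 6 genes from Capn6 to Luzp4 had a median of -2.20. Of 9 well-counted genes from Atp2b4 to Adipor1 on chromosome 1, a stretch that holds Myog, 7 were lower (median -0.95). On chromosome 5 the 5 genes from Pcdh7 to Klf3 were all lower (median -0.65). The run from Zfp810 to Herpud2 on chromosome 9 had 6 of 7 genes higher (median 1.12). These runs were found from the same values, by the rule used for the stretch on chromosome 8. Their counts and medians are therefore a description, beside 32.2% higher and 33.1% lower over all genes.

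**Figure D5:**
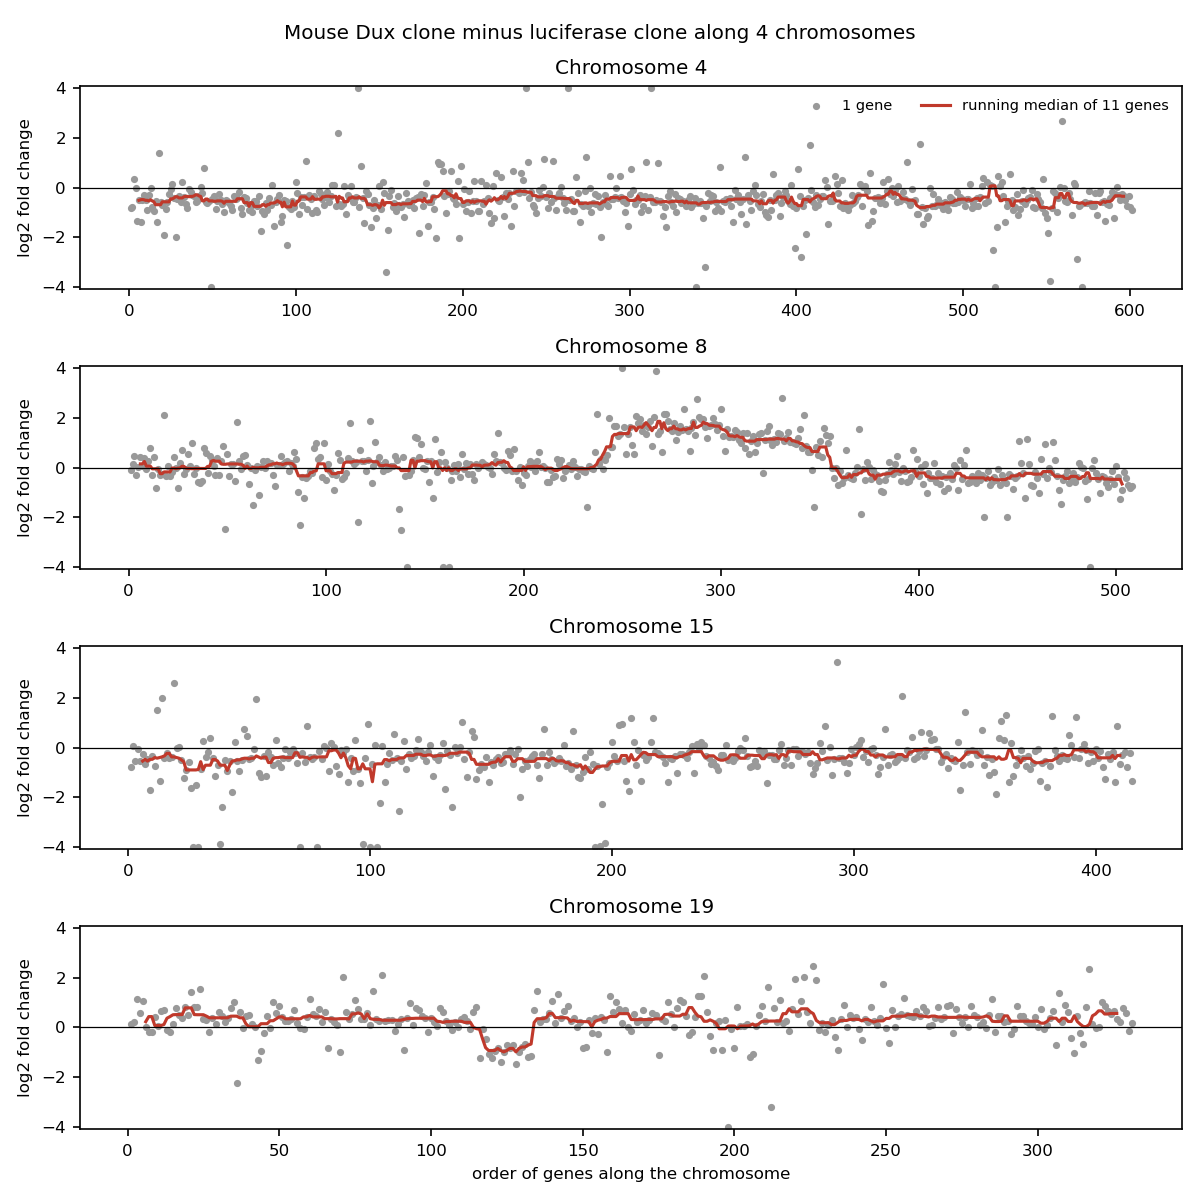
Grey points are well-counted genes in their order along chromosomes 4, 8, 15 and 19, with the log2 fold change of the mouse Dux clone minus the luciferase clone on the y axis (values beyond 4 drawn at 4), and the red line is the running median of 11 genes. The line stays below 0 along nearly all of chromosome 4, rises over 104 genes of chromosome 8, and dips over 17 genes of chromosome 19.

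Without genes on chromosomes 4, 8, 10, 15 and 19, an alternative chosen after the data were seen, 40 of 44 sarcomere genes were lower (median -4.62), 51 of 51 G2 and M phase genes and 36 of 39 S phase genes were higher, and 16 of 17 cholesterol synthesis genes were higher. Of the 10310 genes then left, 3543 were called higher and 2833 lower, with a median of 0.048. Other lists changed more. Of 33 surface and fusion genes 14 were lower and 13 higher (median -0.0023, beside -0.32 with all chromosomes). The median went from -0.67 to -0.33 for fibroblast and smooth muscle genes and from -0.27 to -0.051 for interferon-stimulated genes. It went from -2.34 to -1.54 for calcium handling and energy genes, and away from 0 for collagens (-0.81 to -1.14).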

How the data were processed

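The authors deposited whole-number read counts per gene for 18 libraries of polyadenylated RNA, without normalization. The submitters' processing notes name mm10 as the genome build and list TopHat2 2.0.12, Bowtie2 2.2.3 and CASAVA. How reads were counted, by which annotation and whether by strand is not stated there, so reads of overlapping, antisense or near-identical genes cannot be assigned with certainty. Of 24028 genes, 5017 had no count, 23968 (99.8%) matched RefSeq GRCm38.p6 by identifier, and 27 symbols turned into dates were restored.

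Genes passing filterByExpr by group (13602) were tested with edgeR 4.0.16 (R 4.3.3), by its two-sided quasi-likelihood F test, with TMM scaling and 6 group means over all 18 libraries, which share 1 estimate of the spread (biological coefficient of variation 6.25%). That spread also draws on doxycycline-treated mouse Dux libraries, which differed more among themselves. P-values were adjusted by Benjamini-Hochberg, and a gene was called at an adjusted p under 0.05. The SE is the log2 fold change divided by the square root of F. Where a group had no count, a bound was computed as if it had 3 counts in total. Where it had 1 to 3, the ratio has a 95% exact (Clopper-Pearson) interval. Bounds and intervals cover counting error only. On simulated data, 184 of 200 changed genes among 13602 were recovered, with 9 false calls. Few genes differed in that simulation, while 65.3% of genes were called between the 2 clones. It therefore cannot show how calls or TMM scaling behave when most genes differ. Recovery is given here for all 200 genes together and not by size, so it gives no rate for small differences.

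Named genes are the 12 largest rises and 12 largest falls among genes called at least 4-fold apart with at least 5 CPM in the higher group and no overlap of libraries, 6 marker genes, up to 4 called members of each of 26 lists by size of change, also with at least 5 CPM in the higher group, and genes that check cell type and Dux response; a few of these are counted in their lists but not reported here by name. The members, lists and tests were chosen with earlier results of these data known. Comparisons were rerun under 14 alternatives: other scalings and filters, DESeq2 1.42.0, fits of 6 or 9 libraries, a replicate block, and leaving out each library. The labels do not tie libraries to sequencing lanes.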

Additional observations from a re-analysis of the deposited data

How the results depend on the processing

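Under the 14 alternatives, 135 of 136 recomputed counts of called genes stayed within 1.5 times of the value above, and no gene named changed direction. The exception was the filter of at least 50 counts in 3 libraries, which tests fewer genes: 301 genes were then called at least 4-fold higher, beside 503. Leaving out each of the 6 libraries in turn gave 4066 to 4181 genes called higher, 4230 to 4328 lower, 511 to 523 at least 4-fold higher and 765 to 787 at least 4-fold lower. Of the counts within lists 753 stayed within 1.5 times and 27 did not. Library size alone in place of TMM moved the median of all genes by 0.085 on the log2 scale and gave 5240 genes higher and 3860 lower, beside 4377 and 4506. DESeq2 gave 4197 and 4499. The median of chromosome 4 ranged from -0.53 to -0.43 and that of 10 from -0.31 to -0.20. That of 15 ranged from -0.42 to -0.32 and that of 19 from 0.23 to 0.40. Smaller medians were less stable: that of chromosome 9 ranged from 0.065 to 0.25 and that of 17 from 0.028 to 0.17. On chromosome 5 the median changed sign (-0.057 to 0.021). Of the recomputed chromosome medians 122 were classed as moved and 158 as the same. Same-numbered libraries did not deviate together (correlations of -0.12, 0.018 and -0.069 over 9573 genes). Libraries with different numbers gave -0.10 to 0.13. Deviations from a mean of 3 libraries depend on each other, so the check showed no pairing by number but cannot exclude it. With replicate number as a block, 4377 genes were higher and 4515 lower, with 500 and 749 at least 4-fold apart. Depth limits genes with few counts: the 59 and 93 genes absent from 1 line are known only by a bound.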
